A study of Homo sapiens with 9 samples.

Results

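The cytosolic ribosomal protein genes were taken as the protein-coding genes of the deposited table whose symbol is RPL or RPS with a number, with or without the endings A, X, L, AL or L1, or is RPLP0, RPLP1, RPLP2 or RPSA. Of 85 genes with such a symbol, 79 had a mean normalised count of at least 10 over the 9 libraries, out of 62710 genes in the table and 15230 genes that passed the same minimum and were tested. The 79 genes comprised 49 of the large subunit and 30 of the small subunit, including paralogs such as RPL36AL and RPS27L.

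RNA was sequenced from A375R, a human melanoma cell line resistant to a BRAF inhibitor. The paper states that this line was kept in medium with 2 µM of that inhibitor, PLX4032, which the sample labels do not name. The cells received DMSO as the control (labelled WT, with no dose), 10 µM VHL-r for 2 h, or 10 µM R4VPL3-1 for 2 h, with 3 biological replicates of each. VHL-r is the moiety that binds the ubiquitin ligase VHL, and R4VPL3-1 is the full PROTAC-like molecule, in which that moiety is linked to a binder of the ubiquitin ligase RNF4. All groups came from 1 resistant line, and both compound groups were compared with the same 3 DMSO libraries.

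Each ribosome is built from RNA and one copy of most ribosomal proteins, so cells make these proteins in matched amounts. Their mRNAs are abundant and long-lived, and most begin with a 5′ terminal oligopyrimidine (TOP) tract, a C followed by a run of pyrimidines. The kinase complex mTORC1 and the RNA-binding protein LARP1 control the translation and storage of TOP mRNAs, a step that RNA-seq of total mRNA does not measure.

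The start sites show this shared feature in most of the genes, and its absence at the annotated start of others. A start sequence was found for 64 of the 79 genes in RefSeq (GRCh38.p14). The first base was C with at least 5 pyrimidines in a row in 40 of these 64 (62.5%), against 4.04% of 27305 promoters. A run of at least 8 pyrimidines within 20 bases of the start was found in 50 (78.12%), against 17.29% of promoters. Both searches read only the strand that has the sequence of the RNA. Below are 10 bases before and 20 bases from the annotated start of 8 genes, with the pyrimidines that run on from the first transcribed base in capitals. RPS6 and RPLP0 are the typical members, RPL39 and RPL36AL are the members that were called below, and the other 4 are paralogs with a partner or without a tract.
RPS6: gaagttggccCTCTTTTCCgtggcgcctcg
RPLP0: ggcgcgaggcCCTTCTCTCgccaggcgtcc
RPL39: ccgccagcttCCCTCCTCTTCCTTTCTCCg
RPL36AL: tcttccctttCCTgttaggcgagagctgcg
RPL22: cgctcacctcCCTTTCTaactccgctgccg
RPL22L1: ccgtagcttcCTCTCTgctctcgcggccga
RPS27L: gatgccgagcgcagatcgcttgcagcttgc
RPL26L1: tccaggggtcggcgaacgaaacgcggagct

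The run from the first base was 19 pyrimidines in RPL39 (chrX:119791611-119791640, minus strand), 9 in RPS6 (chr9:19380217-19380246, minus strand) and 9 in RPLP0 (chr12:120201092-120201121, minus strand). It was 3 in RPL36AL (chr14:49620607-49620636, minus strand), where most of the pyrimidines lie before the annotated start. RPL22 (chr1:6199576-6199605, minus strand) had 7 and its paralog RPL22L1 (chr3:170870176-170870205, minus strand) had 6. RPS27L (chr15:63157458-63157487, minus strand) and RPL26L1 (chr5:172958719-172958748, plus strand) did not begin with a pyrimidine. Neither did genes outside the paralogs such as RPL4, RPL11 and RPL32, so this was not particular to paralogs. A tract is a description of these letters, and no match says only that the letters are not in this window.

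The genes share other features that the symbols do not fix. They lie on 20 chromosomes, 12 of them on chromosome 19. Of the 79 genes, 27 (34.18%) hold a small nucleolar RNA within the gene, 57 such RNAs in all, against 1.602% of the tested genes. Their median transcript length was 887 bases, against 3006 bases over all tested genes. Ribosomal protein mRNAs have many processed copies in the genome, and the median gene had 4.45% of its 100-base windows found elsewhere in the genome. The share was above 50% in 10 genes, among them RPL21 (100%), RPS27 (94.07%), RPL39 (92.78%) and RPS3A (79.48%), so the counts of these genes are less certain. It was 0 in 24 genes.

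The symbols below the minimum include genes that every cell needs. RPS10 and RPL17 were listed at 0 in all 9 libraries, and RPL36A and RPL26 had means of 0.11 and 0.76. Between 71.03% and 100% of the coding bases of these 4 genes lie on exons of another annotated gene on the same strand, such as the readthrough genes RPS10-NUDT3 and RPL17-C18orf32. By default the counter the authors used, htseq-count, leaves out reads that fit exons of more than 1 gene, and these values were not read as expression. RPL3L, the muscle paralog of RPL3, had a mean of 3.85 and no such overlap. Among the 79 genes, RPL22 and RPS15A are partly covered, over 59.9% and 54.62% of their coding bases.

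The recovered depth was 26435568 to 32085626 reads per library. Markers of melanoma and neural crest were mixed. MITF was at 893 to 1994 normalised counts, S100A1 at 1856 to 2349, PRAME at 2882 to 3519 and AXL at 9240 to 12114. PMEL reached at most 36.8, MLANA was listed at 0 and TYR reached at most 2.14. SOX10, a defining marker of the lineage, separated by treatment, at 17007 to 17935 with DMSO, 9133 to 11216 with VHL-r and 7900 to 8752 with R4VPL3-1. MITF separated from DMSO too, at 1497 to 1994 with DMSO, 983 to 1136 with VHL-r and 893 to 1235 with R4VPL3-1. AXL, S100A1 and NGFR were lower than DMSO in all R4VPL3-1 libraries, and overlapped DMSO with VHL-r. DCT, S100B, PRAME and PMEL overlapped DMSO with both compounds. The part of these markers in the results was not tested. The lymphocyte markers PTPRC, CD3E and CD79A did not exceed 11.8. The keratinocyte gene DSG3 was listed at 0 and KRT14 was at 224 to 365. The fibroblast gene COL1A1 was at 840 to 1635.

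Summed over the 79 genes, the ribosomal protein mRNAs held a like share of each library. Their normalised counts summed to 5.88, 6.00 and 6.00% of all counts in the DMSO libraries, 5.73, 5.95 and 6.26% in the VHL-r libraries, and 5.78, 6.00 and 6.14% in the R4VPL3-1 libraries. The groups overlap, with the lowest and the highest library both treated with VHL-r. The mean sum was 1702471 ± 11357 (SD, n = 3) with DMSO, 1691222 ± 80246 with VHL-r and 1696847 ± 53602 with R4VPL3-1. The means differed by less than the spread between replicates. The values are relative to each library, so a change in RNA per cell and a change in the number of cells cannot be told apart, and neither would show here.

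VHL-r against DMSO asks what the VHL-binding moiety does alone. None of the 79 genes passed an adjusted p of 0.05 by limma, where 19.8% of all tested genes did (10.3% higher, 9.51% lower) and 20.8% of those with a mean count of at least 1000. None had an unadjusted p under 0.05 in this fit, against 30.3% of all tested genes, and edgeR and DESeq2 also called 0. The median log2 fold change was -0.014, against -0.0045 over all tested genes, and it was 0.0018 when libraries were scaled to the nuclear total. Single libraries moved it further, to 0.018 without VHL-r replicate 1 and -0.045 without VHL-r replicate 3, so its sign is not settled. Leaving out replicate 3 of each treatment, chosen after seeing the data, moved it to -0.055. In that limma fit 7 of the 79 genes had an unadjusted p under 0.05, and none was called. Of the 79 genes, 77 changed by at most 0.1 on the log2 scale, against 43.7% of all tested genes and 64.6% of the abundant ones (mean of at least 1000). The 95% interval lay within 0.2 of zero for 75 of the 79 genes, against 26.4% of all tested genes and 58.4% of the abundant ones.

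R4VPL3-1 against DMSO asks what the full molecule does. By limma, 1 gene rose (RPL39) and 1 fell (RPL36AL), 2 of 79, where 24.9% of all tested genes were called (13.1% higher, 11.8% lower) and 26.7% of the abundant ones. These were also the only 2 genes with an unadjusted p under 0.05. The median log2 fold change was -0.013, against -0.0063 over all tested genes, and it was 0.0050 under upper-quartile scaling. It was 0.014 without R4VPL3-1 replicate 1 and -0.025 without R4VPL3-1 replicate 3, so its sign is not settled either. At most 0.1 of change was seen in 76 genes, against 39.5% of all tested genes and 58.2% of the abundant ones. The interval lay within 0.2 for 74 genes, against 24.3% of all tested genes and 53.3% of the abundant ones.

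R4VPL3-1 against VHL-r compares the full molecule with its own VHL-binding part at the same dose and time. Limma called none of the 79 genes, where 1.87% of all tested genes were called, 1.14% higher and 0.729% lower, and 2.64% of the abundant ones. Only RPL36AL had an unadjusted p under 0.05, and edgeR and DESeq2 called 0. The median was 0.0067, against -0.0056 over all tested genes, and it ran from -0.027 without VHL-r replicate 1 to 0.041 without VHL-r replicate 3. At most 0.1 of change was seen in 77 genes, against 61.5% of all tested genes and 85.1% of the abundant ones. The interval lay within 0.2 for 74 genes, against 37.2% of all tested genes and 78.9% of the abundant ones. A p that misses the threshold does not show that the molecules act alike, and these intervals are what bounds the difference.

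**Figure D1:**
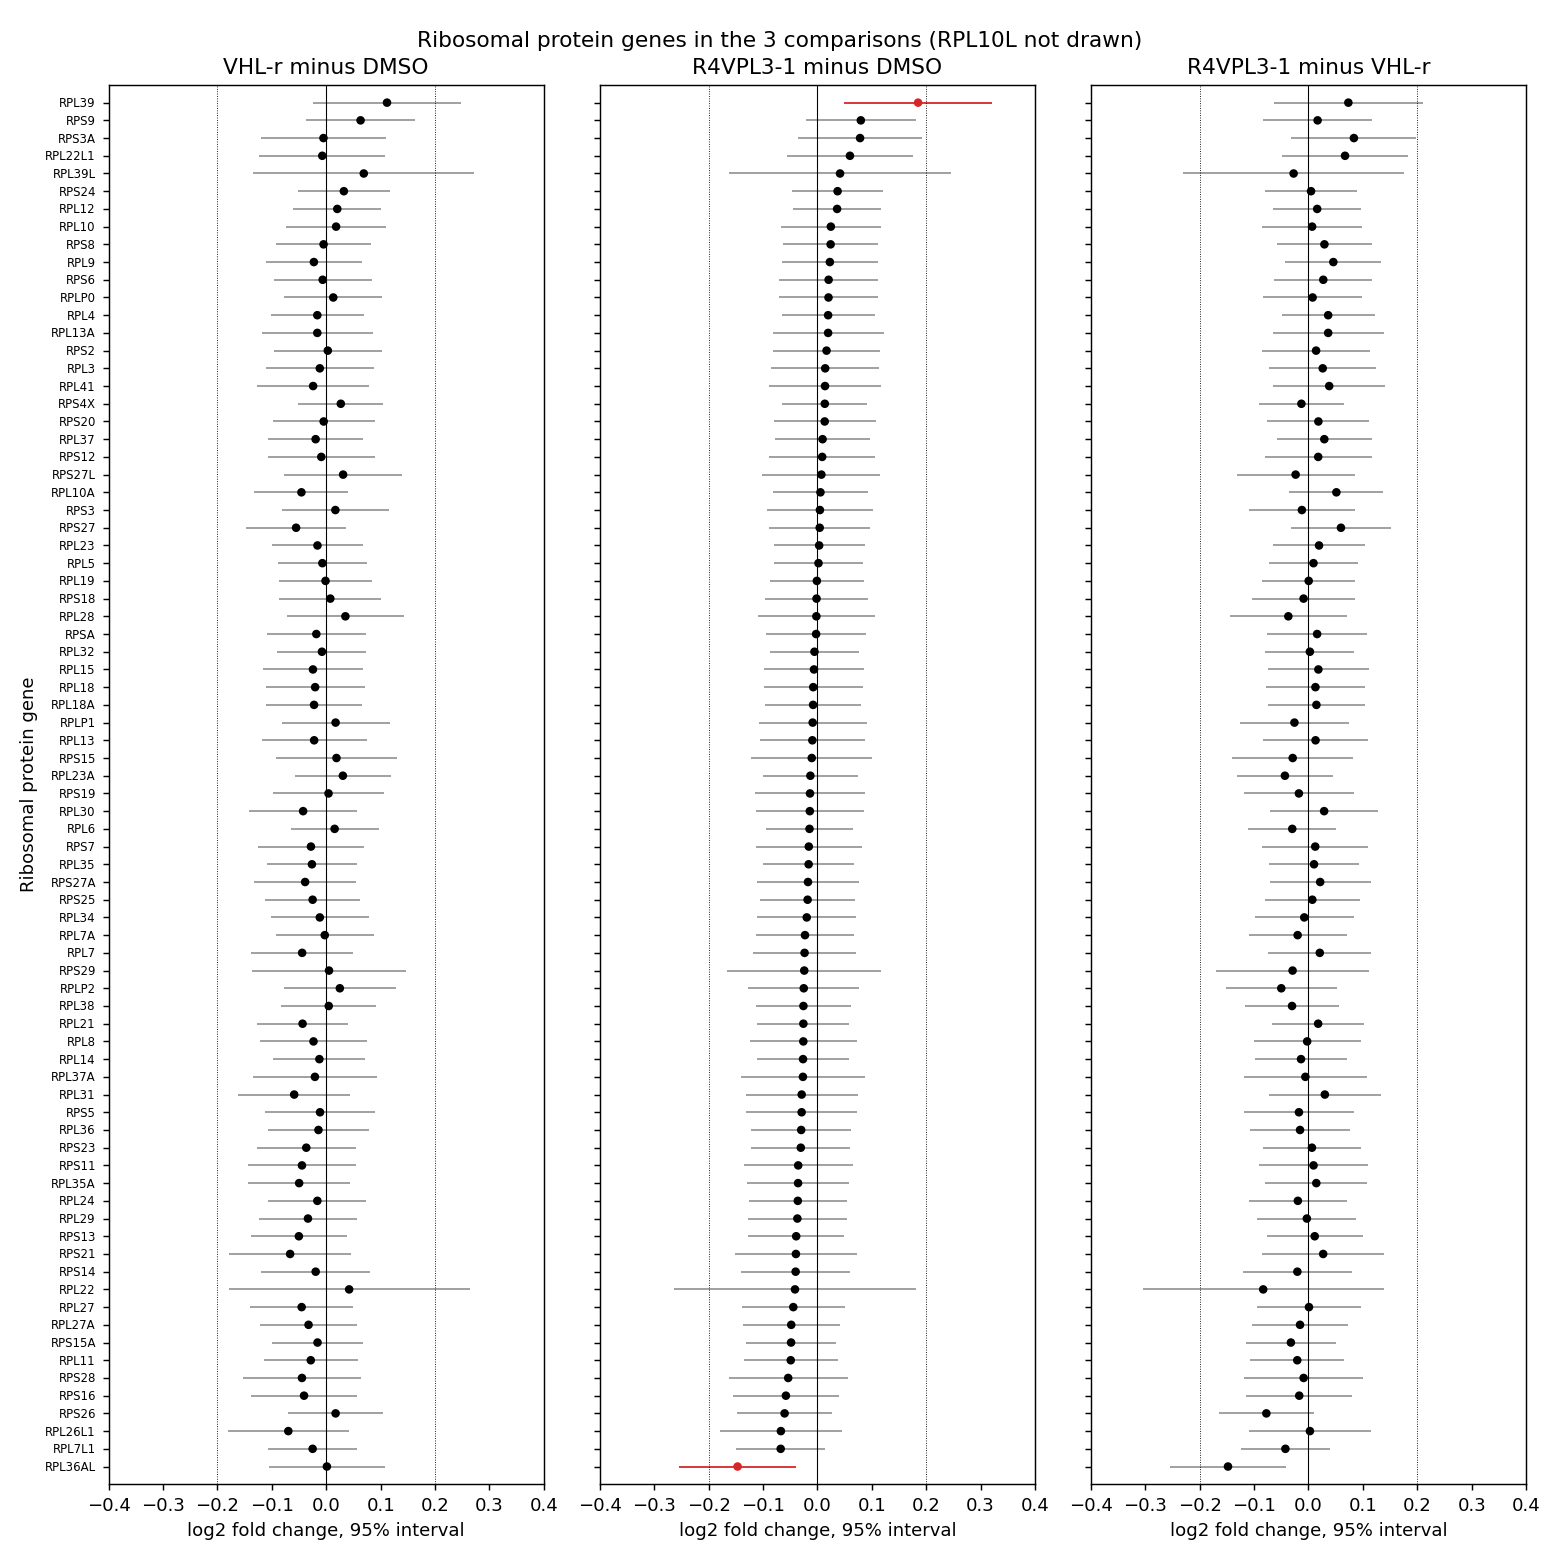
Log2 fold change (x axis) of 78 ribosomal protein genes (rows) in the 3 comparisons, with 95% intervals and dotted lines at 0.2 either side of zero. RPL10L, at a mean of about 10 counts, is not drawn, and the called genes RPL39 and RPL36AL are in red.

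**Figure D2:**
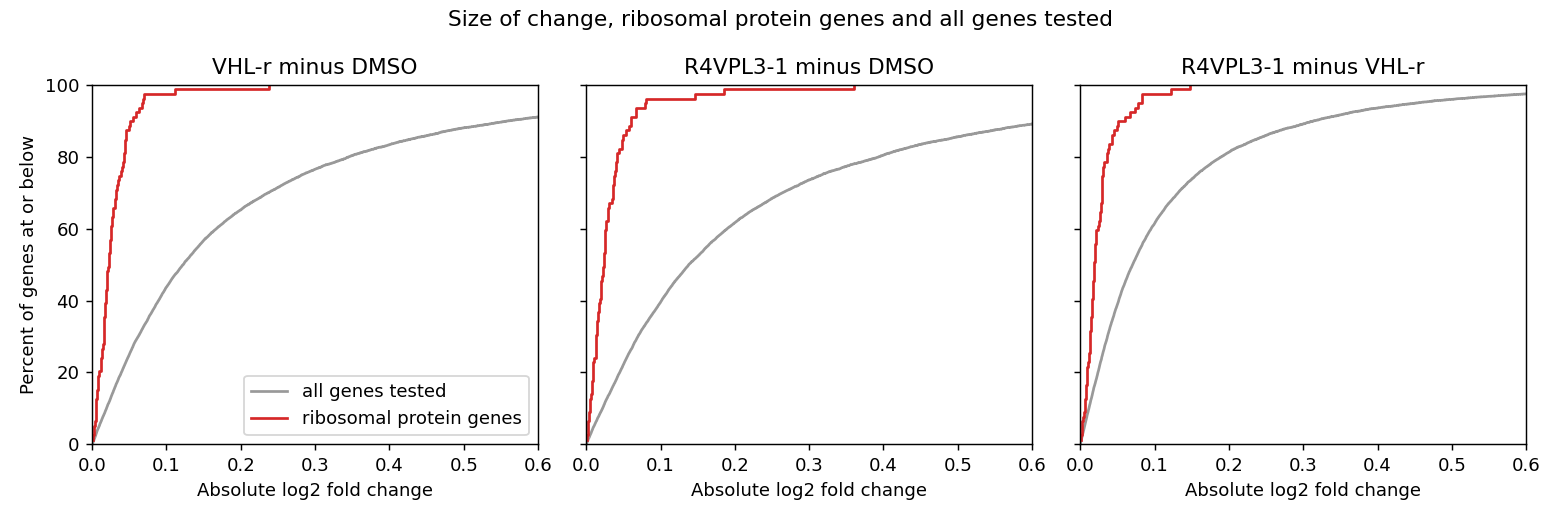
Percent of genes (y axis) whose absolute log2 fold change is at or below the value on the x axis, for the 79 ribosomal protein genes and for the 15230 genes tested. The ribosomal protein genes lie to the left of all genes in each comparison, with 77, 76 and 77 of 79 within 0.1.

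RPL39, a small protein that lines the exit tunnel of the large subunit, was the gene that rose. Its normalised counts were 979, 975 and 958 with DMSO, 1107, 987 and 1056 with VHL-r, and 1170, 1007 and 1141 with R4VPL3-1. Every library of either compound was above every DMSO library, and the compound groups overlap. The log2 fold change was 0.19 (SE 0.07) for R4VPL3-1 against DMSO, with an adjusted p of 0.0432 by limma, and 0.11 (SE 0.07) for VHL-r against DMSO, with an adjusted p of 0.270. The call was lost without DMSO replicate 1, 2 or 3 (adjusted p 0.0797, 0.0951 and 0.102), VHL-r replicate 2 (0.0501), or R4VPL3-1 replicate 1 or 3 (0.197 and 0.114). It was also lost with DESeq2 (0.0556), no filter (0.0678), scaling to the median gene of the set (0.108) and without replicate 3 of each treatment (0.169), so 10 of 24 alternatives lost it. Of the windows of RPL39, 40.55% lie in 1 exon and are also found elsewhere, so its count is less certain in either direction. The part of these windows in the result was not tested.

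RPL36AL, a paralog of the large subunit protein RPL36A, was the gene that fell. Its normalised counts were 2632, 2629 and 2503 with DMSO, 2488, 2605 and 2678 with VHL-r, and 2210, 2342 and 2466 with R4VPL3-1. All 3 R4VPL3-1 libraries were below all 6 others, while DMSO and VHL-r overlap. The log2 fold change was -0.15 (SE 0.05) against DMSO, adjusted p 0.0411 by limma, and -0.15 (SE 0.05) against VHL-r, adjusted p 0.221. The call was lost without DMSO replicate 1 or 2 (0.119 and 0.133), VHL-r replicate 2 (0.0613), or R4VPL3-1 replicate 1 or 2 (0.214 and 0.0875), and with edgeR (0.0531). It was also lost under TMM (0.0547), upper-quartile (0.0727) and nuclear-total scaling (0.0523, and 0.0555 without the ribosomal protein genes), scaling to the median gene of the set (0.0859) and no filter (0.0758), so 12 of 24 alternatives lost it. Only 0.17% of its windows are found elsewhere. Its partner RPL36A could not be measured here.

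RPS3A, a small subunit protein, was called in 1 setting only and was singled out after its values were seen. Its counts were 12754, 13206 and 13489 with DMSO, 12529, 13252 and 13540 with VHL-r, and 12433, 14336 and 15006 with R4VPL3-1. The R4VPL3-1 libraries span both ends of the range. The log2 fold change against DMSO was 0.08 (SE 0.06, adjusted p 0.337 by limma), and 0.16 (adjusted p 0.025) without R4VPL3-1 replicate 1.

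**Figure D3:**
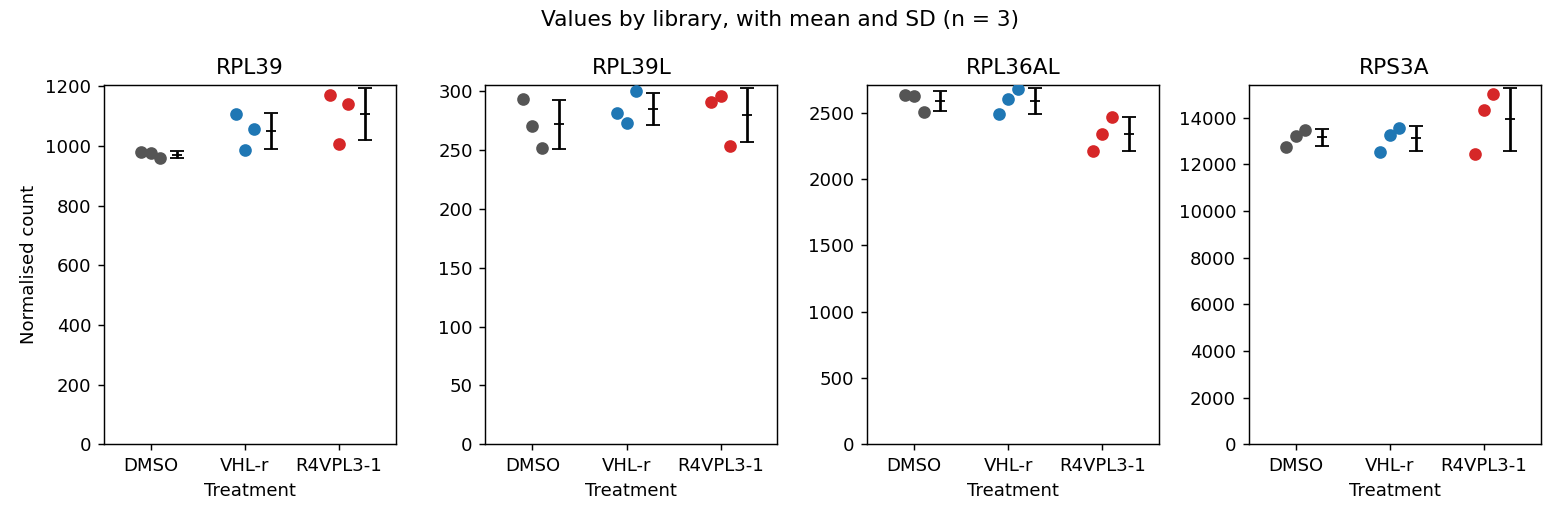
Normalised counts (y axis, from zero) by treatment for RPL39, RPL39L, RPL36AL and RPS3A, with each library as a point and the mean and SD (n = 3) beside it. RPL36AL is lowest in the 3 R4VPL3-1 libraries, and RPL39 is lowest in the 3 DMSO libraries.

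Groups that did not overlap were few. Against DMSO, 3 genes (RPL39, RPS24 and RPS4X) were higher in all VHL-r libraries, where 34.3% of tested genes had groups apart. With R4VPL3-1, 3 genes (RPL12, RPL39 and RPS9) were higher and 5 (RPL26L1, RPL36AL, RPL7L1, RPS16 and RPS26) lower, against 38% of tested genes. Between the compounds, RPL36AL and RPS26 were lower with R4VPL3-1, against 14.1% of tested genes. The names in this paragraph were picked with their values in view.

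The paralogs were looked at as a list of their own. RPL22L1 stood at 2735 ± 127 (SD, n = 3) with DMSO, 2721 ± 126 with VHL-r and 2853 ± 194 with R4VPL3-1, and its partner RPL22 at 351 ± 37.6, 360 ± 6.30 and 343 ± 51.8. RPL22 is partly covered by another gene, so the pair cannot be compared by level. RPL39L, the paralog of RPL39 best known from the testis, was at 272 ± 20.9, 285 ± 13.8 and 280 ± 22.8, and its groups overlap. RPS27L, a p53-responsive paralog of RPS27, was at 3497 ± 87.4, 3573 ± 107 and 3521 ± 271. RPL7L1 was at 6932 ± 57.3, 6814 ± 137 and 6616 ± 45.6, with a log2 fold change of -0.07 (SE 0.04) for R4VPL3-1 against DMSO and an adjusted p of 0.233 by limma. RPL26L1 was at 1336 ± 35.1, 1273 ± 34.8 and 1275 ± 32.1. RPL10L, a germline paralog, was near the minimum at 3.98 to 20.54 counts, and its interval against DMSO ran from -0.62 to 1.34 with R4VPL3-1. Of the 7 paralogs tested, RPL36AL alone was called for R4VPL3-1 against DMSO. This is 14.3%, below the 24.9% of all tested genes, so it is no result about the paralogs. None was called with VHL-r against DMSO or between the compounds.

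The proteins with a second role stayed within narrow intervals. RPL5 and RPL11, which with 5S RNA form the particle that restrains MDM2, were at 18412 ± 152 and 32162 ± 244 counts with DMSO. With R4VPL3-1 they were at 18446 ± 654 and 31106 ± 1289. The intervals of the log2 fold change were -0.08 to 0.08 for RPL5 and -0.14 to 0.04 for RPL11. The stalk proteins RPLP0, RPLP1 and RPLP2, which recruit elongation factors, had log2 fold changes between -0.03 and 0.02 for R4VPL3-1 against DMSO, and none was called in any comparison. RPS6, the substrate of the S6 kinases and the most abundant of the genes by count, was at 69993 ± 809, 69694 ± 2016 and 71057 ± 3506. RPSA, the laminin receptor precursor, was at 33126 ± 442, 32735 ± 1590 and 33090 ± 1338. RPS27A, made as a fusion with ubiquitin, was at 22248 ± 213, 21670.5 ± 928 and 22004 ± 1192. FAU and RACK1, ribosomal proteins under other symbols, were not called in any comparison either.

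The genes shifted together between libraries of the same treatment. The median deviation of the genes from their own mean, on the log2 scale, was 0.019, 0.0055 and -0.0007 in the DMSO libraries, -0.07, -0.01 and 0.06 with VHL-r, and -0.06, 0.02 and 0.04 with R4VPL3-1. In VHL-r replicate 1, 71 of 79 genes were below their mean, and in VHL-r replicate 3, 74 were above it. In R4VPL3-1 replicate 1, 73 were below. The SD within a treatment was 0.056 for the median gene and 0.032 once each library's median was subtracted. That median was taken over these same genes, so a fall is partly built in. With no median subtracted, the SD was 0.062 for the median of all genes with a mean of at least 1000. RPS4X varied least, with an SD of 0.014, and RPL22 most among the genes well above the minimum, with 0.159. The library median rose from replicate 1 to replicate 3 in both compound groups and fell in DMSO. The cause of the shared shift was not tested.

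**Figure D4:**
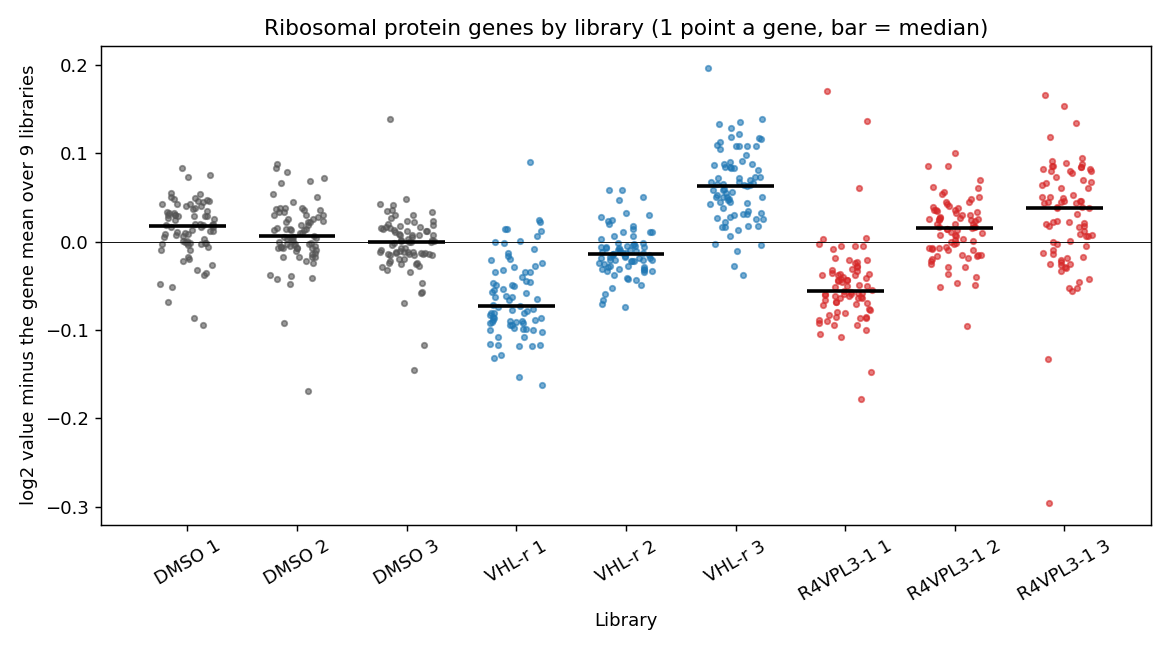
Log2 value of each gene minus its mean over the 9 libraries (y axis) for 78 ribosomal protein genes in each library (x axis), with the library median as a bar. The medians run from -0.07 in VHL-r replicate 1 to 0.06 in VHL-r replicate 3, while the DMSO libraries stay within 0.02.

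The 16 regulators of TOP mRNAs and mTORC1 are a list chosen by hand, with earlier results of these data known. The shares called are therefore no result about the list as a whole. Among them, limma called 4 higher and 4 lower with VHL-r against DMSO (50%, against 19.8% of all tested genes). It called 5 higher and 3 lower with R4VPL3-1 against DMSO (50%, against 24.9%), and 2 higher with R4VPL3-1 against VHL-r (12.5%, against 1.87%). SESN2, an inhibitor of mTORC1 that senses leucine, was at 565, 604 and 632 with DMSO, 1467, 1504 and 1763 with VHL-r, and 2454, 2209 and 2106 with R4VPL3-1. None of its groups overlap, and its log2 fold change was 1.39 (SE 0.07, adjusted p 2.43e-11) with VHL-r and 1.91 (SE 0.07, adjusted p 7.46e-14) with R4VPL3-1. DDIT4, an inhibitor of mTORC1 induced by stress, was at 3215, 3355 and 3226 with DMSO, 2073, 2392 and 2318 with VHL-r, and 18120, 16346 and 10017 with R4VPL3-1. It fell with VHL-r (log2 fold change -0.53, SE 0.13, adjusted p 0.00477) and rose with R4VPL3-1 (2.14, SE 0.13, adjusted p 7.26e-11), and differed between the compounds by 2.67 (adjusted p 1.15e-11). TSC1, which restrains mTORC1, rose by 0.37 and 0.42, and EIF4EBP2, a translation repressor, by 0.34 and 0.27. MTOR, the kinase of the complex, rose by 0.13 with VHL-r (adjusted p 0.0403) and 0.15 with R4VPL3-1 (adjusted p 0.0164), while its partners RPTOR and MLST8 fell by 0.15 and 0.16 on the log2 scale with VHL-r and by 0.22 and 0.16 with R4VPL3-1. DDIT4 and LARP4B (fell by 0.20) were the other genes that fell with VHL-r. LARP1, the TOP-binding protein, fell by 0.18 on the log2 scale with R4VPL3-1 (adjusted p 0.00376).

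Of 14 other genes with TOP mRNAs that passed the minimum, such as translation factors, 2 fell with VHL-r (EIF3F and EIF4B), and with R4VPL3-1 EEF1D rose and EIF4B fell. This is 14.3% in either comparison, below the 19.8% and 24.9% of all tested genes, so it is no result about these genes. None was called between the compounds, by limma, edgeR or DESeq2, and none had an unadjusted p under 0.05. Their median log2 fold change was -0.02, -0.01 and 0.02. EEF1A1, the elongation factor that brings tRNA to the ribosome, was not called. Of 8 chaperones that escort ribosomal proteins, 12.5% were called with VHL-r and 25% with R4VPL3-1, against 19.8% and 24.9% of all tested genes. GRWD1, which binds RPL3, fell by 0.23 and 0.28 on the log2 scale, and BCCIP, which binds RPL23, fell by 0.14 with R4VPL3-1. Of 69 mitochondrial ribosomal protein genes, 1 was higher and 5 lower with VHL-r (8.7% called, below the 19.8% of all tested genes), and 2 were higher and 10 lower with R4VPL3-1 (17.4%, below 24.9%). Their median log2 fold change was -0.04 and -0.07.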

How the data were processed

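RNA-seq libraries of A375R cells were made from poly(A) RNA with a directional kit, in 3 treatments of 3 replicates. Reads of 100 bases were aligned by the authors with STAR to GRCh38, counted with htseq-count, and normalised with DESeq2 1.36.0. The deposited values are a signal, the reads of each gene divided by a size factor for its library. Whole reads were recovered by dividing by what 1 read is worth, and 100% of values above 0 came out within 0.1 read. Per library, 26435568 to 32085626 reads were recovered. In 2 libraries 1 read is worth close to 1.00.

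The main test was limma (3.58.1, R 4.3.3) on log2(value + 1) for 15230 genes (minimum mean 10 across the 9 libraries), all groups in 1 fit, with Benjamini-Hochberg adjustment over all genes and a threshold of 0.05. A fold change on this scale understates the change of low genes. As alternatives, the recovered reads were tested by edgeR (4.0.16), which called 3034, 3857 and 297 genes in the 3 comparisons, and by DESeq2 (1.42.0). The limma fit was also run on simulated counts, which held no shared shift between libraries. Neither edgeR nor DESeq2 was run on them. Values are not comparable between genes, since length differs. Named genes were the paralogs with partners, called genes, those with extreme means, and genes with a second role. The members and lists were chosen with earlier results of these data known. GENCODE 44 (GRCh38) and RefSeq gave gene models and start sequences. Replicate numbers I to III were not treated as pairs in the main test. Some items are not reported here.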

Additional observations from a re-analysis of the deposited data

How the results depend on the processing

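The count of called ribosomal protein genes was 0 for VHL-r against DMSO and for R4VPL3-1 against VHL-r under every alternative run. For R4VPL3-1 against DMSO it was 2, and 1 under TMM, upper-quartile or nuclear-total scaling (with or without these genes) and edgeR, where RPL36AL lost its call, and 1 with DESeq2, where RPL39 did. It was 0 with no filter on low values and at an adjusted p of 0.01, and 0 to 2 when 1 library was left out. Chosen after seeing the data, leaving out replicate 3 of each treatment gave 1, and scaling to the median ribosomal protein gene gave 0. With the replicate number as a block the count stayed 2. Over all tested genes, the block raised the calls in the 3 comparisons from 3016, 3792 and 285 to 3451, 4241 and 389. Correlations between same-numbered libraries ran from -0.006 to 0.121, and between differently numbered ones from -0.148 to 0.098. Most of the same-numbered correlations were positive and most of the others negative. The ranges overlap and all values are small, so whether the numbers mark pairs was not settled. The medians and the summed level moved by less than the spread between replicates. The widest intervals were those of RPL10L, RPL22 and RPL39L, the genes with the lowest counts, and the part of counting error in them was not tested.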
